A study of Chlamydomonas reinhardtii with 8 samples.

Results

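Vegetative cells of the green alga Chlamydomonas reinhardtii labelled dnmt1 were compared with wild-type (WT) cells within 1 of the alga's mating types, mt+. The comparison used 4 of the 8 libraries of the study, 2 labelled dnmt1 mt+ and 2 labelled WT mt+, chosen by their labels, and covered every gene with enough reads to be tested. According to the labels, the dnmt1 mt+ cells were of CC-5155 strains and carried a DNMT1 knockout, and the WT mt+ cells were of CC-5155 strains with the wild-type genotype. Both were grown in liquid or on agar in Tris-acetate-phosphate medium, which supplies acetate as a carbon source, under continuous light, and RNA was taken from vegetative cells, not from gametes. The labels give neither the altered locus nor the lesion, and do not say whether dnmt1 mt+ was 1 clone or several. Each library is marked as a biological replicate, but nothing says whether replicates came from separate cultures, so the p-values measure the spread between these libraries alone. The other 4 libraries, dnmt1 and WT of CC-5325 strains in mt-, entered the fit to share an estimate of the spread, and gave the contrast against which anything particular to mt+ was tested.

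DNA cytosine methyltransferases add a methyl group to cytosines in DNA. Enzymes of the DNMT1 family in animals and their plant relatives copy methylation onto the new strand after replication, and loss of such marks is known in plants and mammals to let silent genes and transposable elements be transcribed. In Chlamydomonas, a methyltransferase of this family, DMT1, has been studied for the methylation of chloroplast DNA in mt+ gametes. Mating type in this haploid alga is set by a region of chromosome 6 that holds genes of 1 mating type alone, such as FUS1, a gene of mt+ cells for gamete fusion.

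The dnmt1 mt+ libraries held 16712723 and 15091414 counts, and the WT mt+ libraries 12204374 and 16420519. Between the 2 dnmt1 mt+ libraries Pearson's r of log2 levels was 0.990, and between the 2 WT mt+ libraries 0.980, each over genes, which do not replicate one another. The WT mt+ pair stood farther apart than the other 3 pairs of the study, with an SD of its log2 differences of 0.469, against 0.323 in dnmt1 mt+. Levels below are in CPM, which relates a count to its library's total times its TMM factor, given for replicates 1 and 2 in that order. A log2 fold change is dnmt1 over WT and is given ± its standard error, which is derived from the test. Calls rest on edgeR's quasi-likelihood test, with p adjusted by Benjamini-Hochberg and a threshold of 0.05, and "higher", "lower", "rose" and "fell" are used of called genes or of single libraries. In such bulk samples, fewer cells of a state and less RNA per cell cannot be told apart.

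The locus listed for DNMT1, DMT1 (Cre10.g461750), had 16.0 and 13.2 CPM in dnmt1 mt+, against 28.2 and 28.3 CPM in WT mt+, from raw counts of 268 and 197 against 332 and 480. The groups did not overlap, and the level was 1.93-fold lower in dnmt1 mt+ (log2 fold change -0.95 ± 0.13, adjusted p = 7.78e-05). Reads over the gene were thus reduced, not absent, and such counts cannot tell whether a working product is made. In the libraries labelled dnmt1 mt- the same gene had 84.0 and 91.0 CPM, against 28.7 and 24.5 CPM in WT mt-, so it was higher there. With the lesion not given, these counts do not test the knockout label, and dnmt1 in the name of a group is used as its label alone. FUS1 (Cre06.g252750) had 18 and 28 counts in dnmt1 mt+ and 8 and 18 counts in WT mt+, and 0 counts in all 4 mt- libraries. Reads of FUS1 were thus found in the libraries labelled mt+ alone, and the FUS1 difference between the genotypes was not called (0.71 ± 0.55, adjusted p = 0.419).

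Across the genome, many genes differed, mostly by less than 2-fold, and the larger differences lay on the side of higher levels in dnmt1 mt+. Of 15263 tested genes, 1415 were higher (9.27%) and 1348 lower (8.83%) in dnmt1 mt+, together 18.1% of those tested. The genes that rose had a median log2 fold change of 0.72 (quartiles 0.49 and 1.07), and those that fell a median of -0.51 (quartiles -0.73 and -0.40). A difference of at least 2-fold was called for 410 higher (2.69%) and 154 lower genes (1.01%). At 4-fold or more there were 76 higher and 19 lower genes, and at 8-fold or more 44 and 9. Every gene with both dnmt1 mt+ libraries above or below both WT mt+ libraries counted as not overlapping, which held for 8280 genes (54.2%). In 27.8% of all tested genes dnmt1 mt+ was the higher group in this sense. These shares stand behind each statement here that the groups of a gene did not overlap.

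The balance of higher and lower calls moved with the level of the gene. Among 2991 genes with a mean of 1 to 5 CPM over the 4 mt+ libraries, 179 were higher and 71 lower (8.36% called), with a median log2 fold change of 0.14. Among 4559 genes between 20 and 100 CPM, 514 were higher and 691 lower (26.4%), and among 1406 genes of at least 100 CPM, 171 were higher and 261 lower (30.7%). The share called by chromosome lay between 14.6% on chromosome 15 and 20.6% on chromosome 4. The counts leaned on single libraries: 771 genes were higher and 534 lower without dnmt1 mt+ replicate 1, and 808 and 529 without replicate 2. Without WT mt+ replicate 1 the counts were 2018 and 1865, and without WT mt+ replicate 2 they were 1986 and 2195. A fit to the 2 mt+ groups alone called 814 and 705. Of the 2763 called genes, 988 (614 higher and 374 lower) were called in each of the 4 fits that left out 1 mt+ library.

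**Figure D1:**
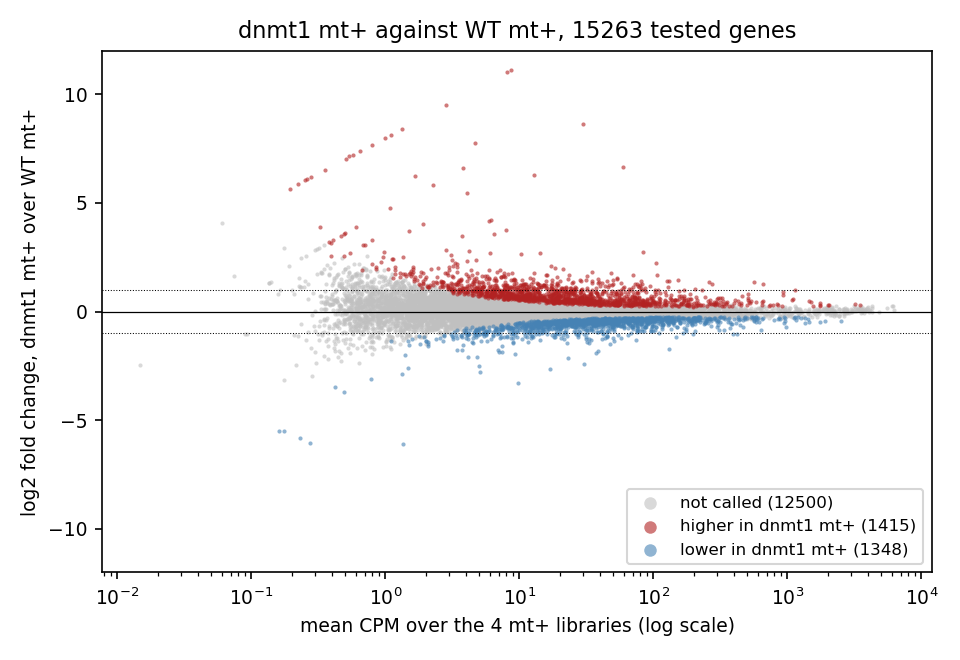
Log2 fold change of dnmt1 mt+ over WT mt+ (vertical axis) against the mean level over the 4 mt+ libraries in CPM (horizontal log axis), 1 point for each of 15263 tested genes. Red points are the 1415 genes higher and blue points the 1348 genes lower in dnmt1 mt+, grey points are not called, and dotted lines mark 2-fold; most points above 8-fold are red.

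Some genes of the cell division cycle were higher in dnmt1 mt+. The list of cell cycle genes, chosen like all lists here with earlier results known, had 13 tested members, of which 5 rose, 1 fell and 7 were not called. That is 46.2% of the list, against 18.1% of all tested genes. The list's median level was 71.3 CPM, and 26.4% of genes of 20 to 100 CPM were called. For this list and those below, the part of level in the share called was not tested. CYCA1 (Cre03.g207900), for an A-type cyclin, a regulatory partner of cyclin-dependent kinases, had 116 and 119 CPM in dnmt1 mt+, against 43.8 and 43.9 CPM in WT mt+ (log2 fold change 1.42 ± 0.09, adjusted p = 5.2e-08). Replicates of CYCA1 were close in both groups and the groups lay far apart. WEE1 (Cre07.g355250), for a kinase that holds back mitotic entry, had 31.2 and 27.5 CPM in dnmt1 mt+ and 14.5 and 13.0 CPM in WT mt+ (1.10 ± 0.13). CDKB1 (Cre08.g372550), for the plant-type mitotic kinase, had 88.6 and 85.1 CPM in dnmt1 mt+ and 56.8 and 59.3 CPM in WT mt+ (0.58 ± 0.09). Both kinase genes were higher in each dnmt1 mt+ library than in each WT mt+ library, as were 27.8% of all tested genes.

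Among the genes of DNA synthesis, RIR2 (Cre12.g491050), for a subunit of ribonucleotide reductase, the enzyme that makes deoxynucleotides, had 158 and 159 CPM in dnmt1 mt+ and 88.4 and 83.9 CPM in WT mt+ (0.88 ± 0.08). PCNA1 (Cre12.g515850), for the sliding clamp of DNA polymerase, had 175 and 171 CPM in dnmt1 mt+ and 117 and 119 CPM in WT mt+ (0.55 ± 0.08). Neither gene's groups overlapped. MCM2 (Cre07.g338000), for a part of the replicative helicase, was not called (-0.16 ± 0.09). RNR1 (Cre12.g492950), for another subunit of ribonucleotide reductase, was not called either (-0.05 ± 0.15), and was called higher without WT mt+ replicate 1 (0.32) but lower without WT mt+ replicate 2. The gene that fell was MAT3 (Cre06.g255450), for the alga's retinoblastoma-related protein, which couples cell size to division. It had 58.9 and 60.3 CPM in dnmt1 mt+ and 93.1 and 72.8 CPM in WT mt+ (-0.47 ± 0.11, adjusted p = 0.00668), and its call was lost without dnmt1 mt+ replicate 1 (adjusted p = 0.0867) or replicate 2 (adjusted p = 0.0588). The list's median log2 fold change was -0.03, against 0.00 for all tested genes. The calls of CYCA1, WEE1, CDKB1, RIR2 and PCNA1 were kept in each fit that left out 1 mt+ library and in the fit to the 2 groups alone, while the number of lower calls lay between 0 and 3.

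The same 5 genes went the other way in the mt- contrast. In the libraries labelled dnmt1 mt-, against WT mt-, CYCA1 had a log2 fold change of -0.72 ± 0.09, RIR2 of -1.05 ± 0.08, CDKB1 of -0.77 ± 0.09, WEE1 of -0.54 ± 0.13 and PCNA1 of -0.53 ± 0.08. There, 11 of the 13 cell cycle genes were lower and none of them higher, where 11.6% of all tested genes were lower. The test of the difference, the mt+ effect minus the mt- effect, gave 2.14 ± 0.13 for CYCA1, 1.93 ± 0.11 for RIR2, 1.63 ± 0.19 for WEE1, 1.35 ± 0.12 for CDKB1 and 1.08 ± 0.11 for PCNA1. All 5 were called in that test, and so were MCM2 and RNR1, with 0.59 ± 0.13 and 0.72 ± 0.21. Mating type, strain and whatever else set the mt- cultures apart cannot be told apart in this design.

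**Figure D2:**
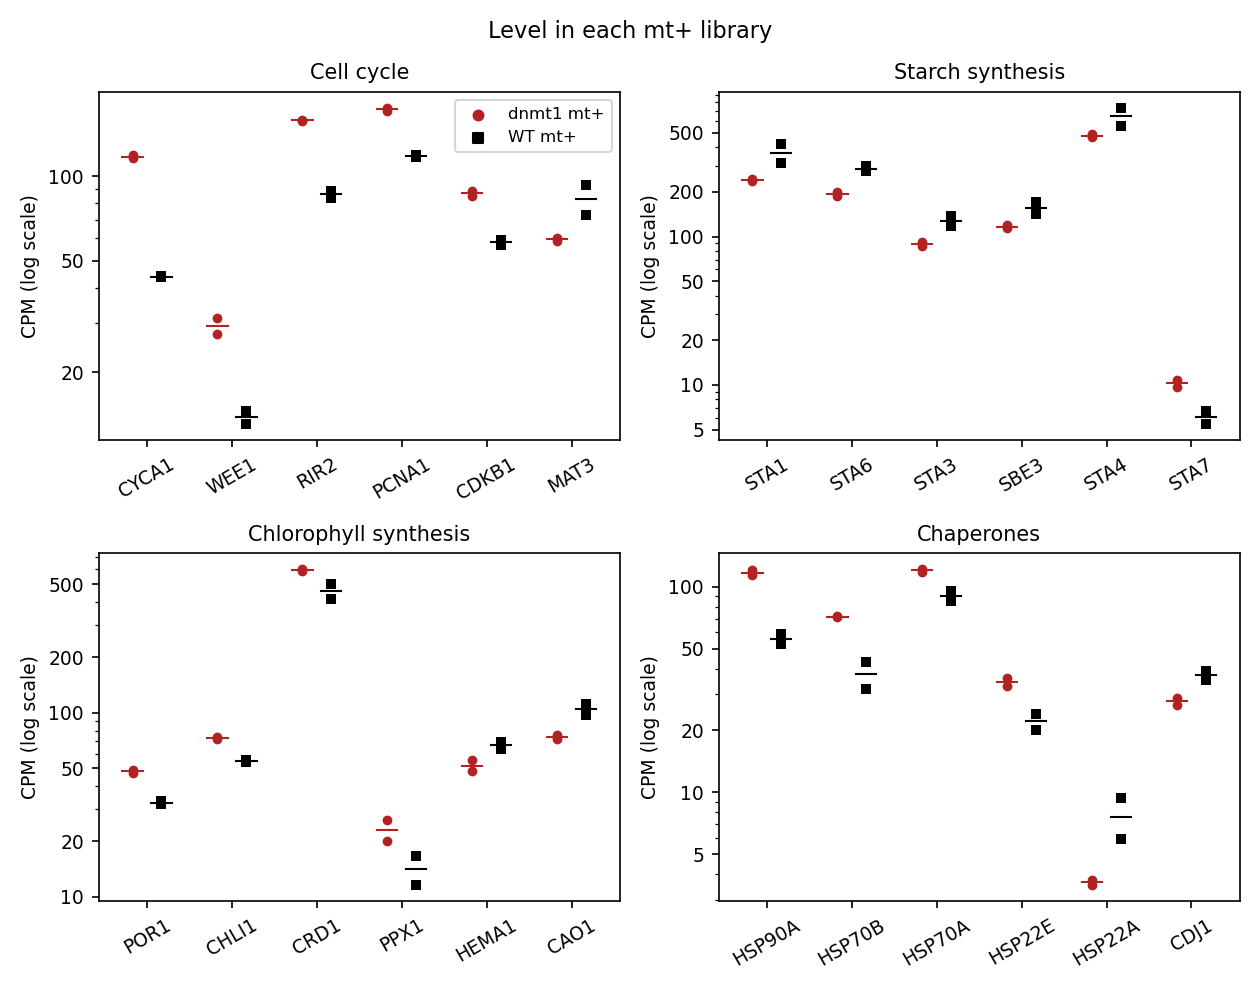
Level in CPM (vertical log axes) in each of the 2 dnmt1 mt+ libraries (red circles) and the 2 WT mt+ libraries (black squares) of 6 genes each of the cell cycle, starch synthesis, chlorophyll synthesis and chaperone lists; bars are group means. CYCA1 lies at 116 and 119 CPM in dnmt1 mt+, above 43.8 and 43.9 CPM in WT mt+, and STA6 at 187 and 199 CPM, below 296 and 277 CPM.

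Most called genes of starch synthesis were lower in dnmt1 mt+. Starch is the alga's carbon store in the chloroplast: ADP-glucose pyrophosphorylase makes the sugar donor, starch synthases extend the chains, and branching and debranching enzymes shape them. Of 12 tested members of the list, 6 fell, 1 rose and 5 were not called (58.3% called). The share was 18.1% over all tested genes and 30.7% over those of at least 100 CPM, and the list's median level was 122 CPM. The median log2 fold change was -0.32. STA6 (Cre03.g188250), for the catalytic subunit of ADP-glucose pyrophosphorylase, had 187 and 199 CPM in dnmt1 mt+ and 296 and 277 CPM in WT mt+ (-0.57 ± 0.08, adjusted p = 0.000139). STA1 (Cre13.g567950), for the large subunit of that enzyme, had 245 and 237 CPM in dnmt1 mt+ and 423 and 312 CPM in WT mt+ (-0.61 ± 0.11). The WT mt+ replicates of STA1 lay farther apart than those of STA6, and in both genes each dnmt1 mt+ library was below each WT mt+ library. STA3 (Cre06.g282000), for a soluble starch synthase, had 91.3 and 85.7 CPM in dnmt1 mt+ and 137 and 117 CPM in WT mt+ (-0.52 ± 0.09). SBE3 (Cre10.g444700), for a branching enzyme, had 119 and 113 CPM in dnmt1 mt+ and 170 and 142 CPM in WT mt+ (-0.42 ± 0.09).

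The other genes that fell were SSS1 (Cre04.g215150), for another starch synthase (-0.47 ± 0.12), and STA4 (Cre12.g552200), for a phosphorylase of the chloroplast (-0.43 ± 0.11). STA7 (Cre03.g155001), for the debranching isoamylase, was the member that rose, with 9.74 and 10.8 CPM in dnmt1 mt+ and 5.44 and 6.73 CPM in WT mt+ (0.74 ± 0.19). In the fit to the 2 groups alone SSS1 and STA7 were not called, and the list had 0 higher and 5 lower calls. The calls of STA1, STA3 and STA6 held in each fit that left out 1 mt+ library. Those of STA4 and SSS1 were lost without either dnmt1 mt+ library, that of SSS1 also without WT mt+ replicate 1, and those of SBE3 and STA7 without dnmt1 mt+ replicate 2. The list then had 4 lower calls without dnmt1 mt+ replicate 1 and 3 without replicate 2, against 6. Set against mt-, the effect in mt+ was called lower for 5 members, STA6 (difference -0.40 ± 0.11), STA1 (-0.69 ± 0.16), STA3 (-0.57 ± 0.13), SBE3 (-0.76 ± 0.13) and STA11 (Cre03.g181500), for a disproportionating enzyme (-0.72 ± 0.15), and higher for STA7 (1.47 ± 0.26). STA11 itself was not called in mt+ (-0.22 ± 0.11).

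Of 10 tested genes that use acetate, 0 rose, 3 fell and 7 were not called, where 18.1% of all tested genes were called. ACS2 (Cre01.g055408), for an acetyl-CoA synthetase, which activates acetate, had 349 and 361 CPM in dnmt1 mt+ and 591 and 554 CPM in WT mt+ (-0.69 ± 0.08, adjusted p = 1.93e-05). ACS2 fell in the mt- contrast as well (-0.58 ± 0.08), and the difference between the contrasts was -0.11 ± 0.11, not called (adjusted p = 0.569). The citrate synthase genes CIS1 (Cre12.g514750) and CIS2 (Cre03.g149100) fell by less (-0.28 ± 0.08 and -0.30 ± 0.09), and both calls were lost without dnmt1 mt+ replicate 1 or replicate 2. Without dnmt1 mt- replicate 1, which shares the estimate of spread, both were lost too, and ACS2 was then the single call of the list. CIS2 was also lost without dnmt1 mt- replicate 2 or WT mt+ replicate 1, and 6 members fell without WT mt+ replicate 2. Library size scaling gave 5 lower calls, and the 2 groups fitted alone gave 1. Among the members not called were ICL1 (Cre06.g282800), for isocitrate lyase (-0.03 ± 0.09), and MAS1 (Cre03.g144807), for malate synthase (-0.05 ± 0.08), the enzymes particular to the glyoxylate cycle, and MDH2 (Cre10.g423250), for a malate dehydrogenase (0.23 ± 0.09). The list's median log2 fold change was -0.20.

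Genes of chlorophyll synthesis moved in both directions, more of them up than down. Of 15 tested members, 6 rose, 2 fell and 7 were not called (53.3% called). The share was 18.1% over all tested genes and 26.4% over those of 20 to 100 CPM, and the list's median level was 36.3 CPM. The median log2 fold change was 0.31. At the branch to chlorophyll, CHLI1 (Cre06.g306300), for a subunit of magnesium chelatase, had 73.4 and 72.2 CPM in dnmt1 mt+ and 55.6 and 54.0 CPM in WT mt+ (0.41 ± 0.09, adjusted p = 0.00405). CHLD1 (Cre05.g242000), for another subunit of the chelatase, had 26.8 and 31.6 CPM in dnmt1 mt+ and 22.4 and 17.5 CPM in WT mt+ (0.56 ± 0.14). POR1 (Cre01.g015350), for the light-dependent protochlorophyllide reductase, had 49.0 and 47.1 CPM in dnmt1 mt+ and 31.8 and 33.1 CPM in WT mt+ (0.57 ± 0.10). For each of these 3 genes both dnmt1 mt+ libraries were above both WT mt+ libraries, as for 27.8% of all tested genes. CRD1 (Cre07.g346050), for a cyclase of the pathway that is known to respond to copper and oxygen supply, also rose (0.38 ± 0.09), as did the earlier genes GSA1 (Cre03.g158000; 0.45 ± 0.13) and PPX1 (Cre09.g396300; 0.70 ± 0.17).

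The genes that fell lie near the start and the end of the pathway. HEMA1 (Cre07.g342150), for glutamyl-tRNA reductase, the committed first step, had 48.2 and 55.1 CPM in dnmt1 mt+ and 63.9 and 69.7 CPM in WT mt+ (-0.38 ± 0.10). CAO1 (Cre01.g043350), for the oxygenase that makes chlorophyll b, had 72.1 and 75.3 CPM in dnmt1 mt+ and 112 and 96.8 CPM in WT mt+ (-0.50 ± 0.09). The calls of CHLI1, POR1 and CAO1 held in each fit that left out 1 mt+ library. Without dnmt1 mt+ replicate 1, CRD1, GSA1 and HEMA1 were lost, without replicate 2 CHLD1, GSA1 and PPX1, and GSA1 was also lost without WT mt+ replicate 2. The list had 4 higher calls without dnmt1 mt+ replicate 1, 3 without replicate 2 and 9 without WT mt+ replicate 1, and 2 in the fit to the 2 groups alone. DESeq2 did not call GSA1 (adjusted p = 0.0587). Beside mt-, where 8 members were higher and 1 lower, the difference between the contrasts was called for 1 member, and for none of the 8 genes called in mt+.

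Few genes for the proteins that bind this chlorophyll were called. Among 24 tested antenna genes, 1 rose and 2 fell (12.5% called). The share was 18.1% over all tested genes and 30.7% over those of at least 100 CPM, and the list's median level was 1078 CPM. The median log2 fold change was -0.03. LHCBM9 (Cre06.g284200), an antenna gene of photosystem II known to be raised under nutrient stress, had 77.5 and 66.9 CPM in dnmt1 mt+, against 33.1 and 20.6 CPM in WT mt+ (1.45 ± 0.15, adjusted p = 1.02e-05). Its mt- effect was -0.48 ± 0.14, also called, and the difference between the contrasts was called (1.93 ± 0.21). LHCBM4 (Cre06.g283950) had 138 and 122 CPM in dnmt1 mt+ and 210 and 160 CPM in WT mt+, and LHCBM8 (Cre06.g284250) 73.3 and 76.7 CPM in dnmt1 mt+ and 127 and 88.3 CPM in WT mt+. Both fell (-0.51 ± 0.11 and -0.51 ± 0.12), but LHCBM4 lost its call without dnmt1 mt+ replicate 2, and LHCBM8 without either dnmt1 mt+ library. These LHCBM genes are similar in sequence, and the counting could split their reads. Of 17 photosystem and Rubisco genes, 1 was called (5.88%), against 18.1% of all tested genes and 30.7% of those of at least 100 CPM. The list's median level was 1731 CPM. Its single call, PSBX (Cre02.g082750), for a small photosystem II subunit (0.34 ± 0.09), was lost without either dnmt1 mt+ library. The next by p were PSAE (Cre10.g420350; -0.28 ± 0.10, adjusted p = 0.0542), PSAG (Cre12.g560950; 0.17 ± 0.09) and PSAH (Cre07.g330250; -0.11 ± 0.08), for photosystem I subunits, and in the antenna LHCA1 (Cre06.g283050; 0.20 ± 0.09), none called. PSAE passed the threshold with RLE size factors, library size scaling, no low-count filter, the replicate number as a block, DESeq2, and without WT mt+ replicate 2 or either WT mt- library, and LHCA1 with library size scaling and without WT mt+ replicate 1. Without WT mt+ replicate 1 there were 3 higher calls in each of these lists, and without WT mt+ replicate 2 there were 8 lower calls among the antenna genes and 2 among the photosystem and Rubisco genes.

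Genes for chaperones, the proteins that assist folding, had more higher than lower calls. Of 21 tested members, 10 rose, 2 fell and 9 were not called (57.1% called). The share was 18.1% over all tested genes and 26.4% over those of 20 to 100 CPM, and the list's median level was 54.5 CPM. The median log2 fold change was 0.28. HSP90A (Cre09.g386750), of the cytosol, had 114 and 120 CPM in dnmt1 mt+ and 59.0 and 52.6 CPM in WT mt+ (1.07 ± 0.09, adjusted p = 1.4e-06). HSP70B (Cre06.g250100), of the chloroplast, had 71.1 and 72.0 CPM in dnmt1 mt+ and 43.0 and 32.0 CPM in WT mt+ (0.94 ± 0.11). HSP70A (Cre08.g372100), the cytosolic partner of HSP90A, had 119 and 122 CPM in dnmt1 mt+ and 95.6 and 84.8 CPM in WT mt+ (0.42 ± 0.08). Both dnmt1 mt+ libraries exceeded both WT mt+ libraries in all 3 genes, as in 27.8% of all tested genes. HSP22E (Cre14.g617450) and its neighbour HSP22F (Cre14.g617400), for small heat shock proteins that share sequence and may share reads, rose as well (0.64 ± 0.12 and 0.42 ± 0.12).

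Smaller rises were called for the chloroplast genes HSP90C (Cre12.g514850; 0.37 ± 0.09), CLPB3 (Cre02.g090850; 0.38 ± 0.10) and CPN60A (Cre04.g231222; 0.31 ± 0.10). The mitochondrial HSP70C (Cre09.g393200; 0.34 ± 0.09) and the calreticulin gene CRT2 (Cre01.g038400; 0.36 ± 0.10) rose to a like extent. HSP22A (Cre07.g318800), another small heat shock gene, had 3.53 and 3.76 CPM in dnmt1 mt+ and 9.34 and 5.90 CPM in WT mt+ (-1.04 ± 0.24), and CDJ1 (Cre12.g507650), a chloroplast J-domain partner of HSP70B, also fell (-0.42 ± 0.10). BIP1 (Cre02.g080700) and BIP2 (Cre02.g080600), the HSP70 genes of the endoplasmic reticulum, overlapped between the groups (0.06 ± 0.11 and 0.06 ± 0.15), although BIP1 was called higher without WT mt+ replicate 1. In mt- the effects on both were larger (1.51 ± 0.12 and 2.44 ± 0.15, both called), and the differences of -1.45 ± 0.16 and -2.39 ± 0.21 were called. The test of the difference was also called for HSP90A (0.78 ± 0.13), HSP70B (0.54 ± 0.15), HSP22E (1.05 ± 0.16), HSP22F (1.08 ± 0.16) and HSP22A (-1.35 ± 0.32). Over the whole list it called 5 members with a higher and 4 with a lower effect in mt+, some of them not named here.

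Only part of the chaperone calls was stable when a library was left out. HSP90A, HSP70A, HSP70B and HSP22E were called in each fit without 1 mt+ library. Without dnmt1 mt+ replicate 1, the list had 6 higher and 0 lower calls, and without replicate 2 it had 4 and 1. HSP90C, HSP22F, CPN60A, CRT2 and CDJ1 were lost without either of these libraries, HSP70C and CLPB3 without replicate 2, and HSP22A without replicate 1. CPN60A was also lost without WT mt+ replicate 2, and on leaving out dnmt1 mt- replicate 2 or either WT mt- library. The 2 groups fitted alone gave 4 higher and 1 lower. DESeq2 gave 8 higher and 2 lower, and did not call HSP70C (adjusted p = 0.0528) or HSP22F (adjusted p = 0.0527).

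**Figure D3:**
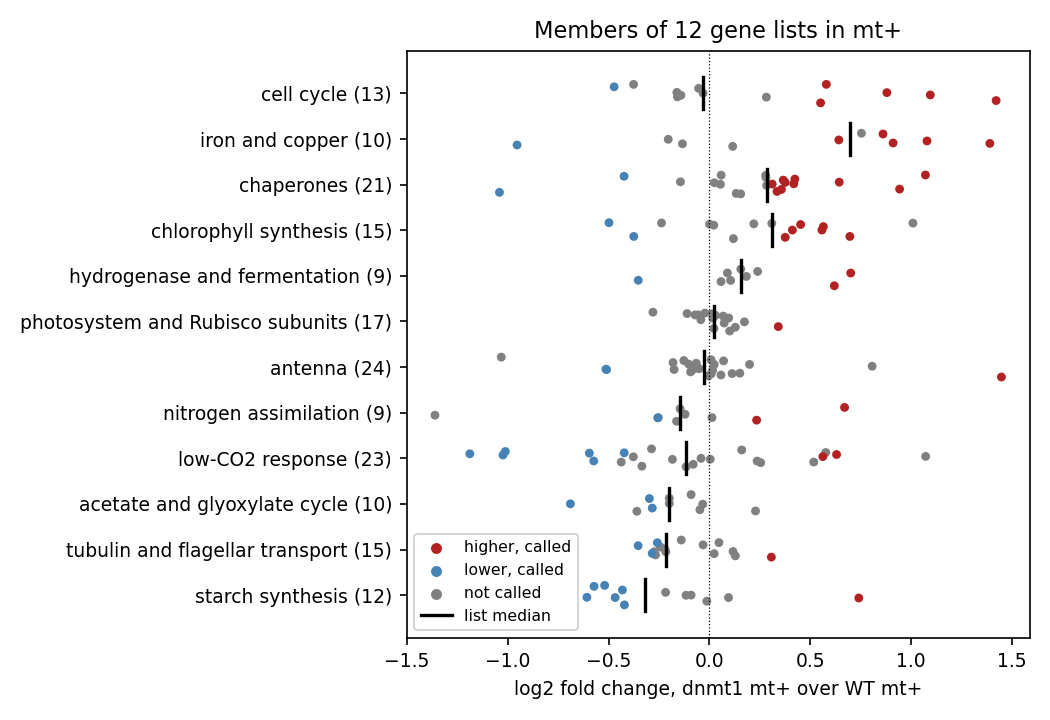
Log2 fold change of dnmt1 mt+ over WT mt+ (horizontal axis) of every tested member of 12 gene lists, with the number of tested members in brackets; red points are called higher, blue points called lower, grey points not called, and black bars are list medians. The median bar of the iron and copper list lies at 0.70 and that of the starch synthesis list at -0.32.

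Of 10 tested iron and copper nutrition genes, 5 were higher, 1 lower and 4 not called (60.0% called). The share was 18.1% over all tested genes and 26.4% over those of 20 to 100 CPM, and the list's median level was 43.1 CPM. The list had a median log2 fold change of 0.70. The median was 0.41 without dnmt1 mt+ replicate 1 or without WT mt+ replicate 2, 0.38 with no low-count filter and 0.36 by DESeq2, in fits that tested 11 or 12 members. CTR2 (Cre10.g434350), for a copper transporter, had 52.4 and 47.3 CPM in dnmt1 mt+ and 23.9 and 14.8 CPM in WT mt+ (1.39 ± 0.16), and CTR1 (Cre13.g570600), for another, 99.0 and 94.0 CPM in dnmt1 mt+ and 59.0 and 47.7 CPM in WT mt+ (0.86 ± 0.10). IRT2 (Cre12.g530350), for a metal transporter of the ZIP family, had 17.2 and 15.8 CPM in dnmt1 mt+ and 7.31 and 8.26 CPM in WT mt+ (1.08 ± 0.18, adjusted p = 0.000485). FEA2 (Cre12.g546600), for a protein of iron assimilation outside the cell, had 69.6 and 65.1 CPM in dnmt1 mt+ and 41.3 and 30.8 CPM in WT mt+ (0.91 ± 0.13), and FOX1 (Cre09.g393150), for the ferroxidase of iron uptake, 123 and 116 CPM in dnmt1 mt+ and 83.3 and 70.0 CPM in WT mt+ (0.64 ± 0.09). The groups were apart in all 5 genes, as in 54.2% of all tested genes. FEA2 and IRT2 each have a similar neighbour, FEA1 (Cre12.g546550) and IRT1 (Cre12.g530400), with which reads may be shared. FTR1 (Cre03.g192050), for the permease that works with FOX1, had 34.8 and 33.0 CPM in dnmt1 mt+ and 29.7 and 32.7 CPM in WT mt+ (0.12 ± 0.11), and was not called.

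CYC6 (Cre16.g651050), for cytochrome c6, which takes the place of plastocyanin when copper is short, had 7.41 and 8.86 CPM in dnmt1 mt+ and 17.5 and 14.2 CPM in WT mt+ (-0.95 ± 0.18, adjusted p = 0.00128). It had the opposite effect in mt- (1.51 ± 0.17), and the difference was called (-2.46 ± 0.25), the single such call of the list. CTR2 and CTR1 were higher in mt- too (1.34 ± 0.16 and 0.75 ± 0.10), with differences of 0.05 ± 0.23 and 0.11 ± 0.14 that were not called. The 6 genes called here were called in each fit without 1 mt+ library, and without WT mt+ replicate 2 there were 3 lower calls, against 1.

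Genes of the response to low CO2 fell more often than they rose. This response lets the alga concentrate inorganic carbon around Rubisco with transporters and carbonic anhydrases, enzymes that interconvert CO2 and bicarbonate. Of 23 tested members, 2 rose, 6 fell and 15 were not called (34.8% called). That compares with 18.1% of all tested genes and 26.4% of those of 20 to 100 CPM, and the list's median level was 40.2 CPM. The median log2 fold change was -0.12. CAH1 (Cre04.g223100), for the periplasmic carbonic anhydrase, had 133 and 129 CPM in dnmt1 mt+ and 292 and 241 CPM in WT mt+ (-1.02 ± 0.10, adjusted p = 3.13e-06). The mitochondrial CAH4 (Cre05.g248400) had 263 and 256 CPM in dnmt1 mt+ and 613 and 436 CPM in WT mt+ (-1.01 ± 0.12), and CAH5 (Cre05.g248450) 89.3 and 89.1 CPM in dnmt1 mt+ and 233 and 174 CPM in WT mt+ (-1.19 ± 0.12). CAH4 and CAH5 are near-identical copies, so their reads may be split between them, and their folds are not independent. The other falls were of CAH8 (Cre09.g405750), for another carbonic anhydrase (-0.57 ± 0.13), EPYC1 (Cre10.g436550), for the linker protein of the pyrenoid (-0.60 ± 0.13), and CIA5 (Cre02.g096300), for the regulator of the response (-0.42 ± 0.10).

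Another side of the same list rose. CAH3 (Cre09.g415700), for the carbonic anhydrase of the thylakoid lumen, had 70.4 and 64.9 CPM in dnmt1 mt+ and 49.4 and 42.5 CPM in WT mt+ (0.56 ± 0.10), and BST3 (Cre16.g663450), for a bestrophin-like channel of the thylakoid, 56.9 and 57.1 CPM in dnmt1 mt+ and 40.5 and 33.4 CPM in WT mt+ (0.63 ± 0.12). Many other members were not called, among them LCIB (Cre10.g452800; -0.08 ± 0.11), which was called lower without WT mt+ replicate 2, and HLA3 (Cre02.g097800; -0.29 ± 0.19), and LCIA (Cre06.g309000) lay at or below 1.20 CPM in all 4 mt+ libraries. The difference from the mt- contrast was -3.90 ± 0.14 for CAH1, -5.40 ± 0.19 for CAH4 and -5.31 ± 0.18 for CAH5, whose mt- effects were 2.88 ± 0.11, 4.39 ± 0.14 and 4.12 ± 0.14. CAH8 (-1.05 ± 0.18), EPYC1 (-0.89 ± 0.18) and CAH3 (0.57 ± 0.14) also differed between the contrasts, and CIA5 and BST3 were not called in that test. CAH8 and CIA5 lost their mt+ calls without either dnmt1 mt+ library and EPYC1 without replicate 2, which left 4 falls without replicate 1 and 3 without replicate 2, while 10 members fell without WT mt+ replicate 2. BST3 and CAH3 kept their calls in each of these 4 fits, and 4 members rose without WT mt+ replicate 1.

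Fermentation genes, which Chlamydomonas uses without oxygen, had 2 higher and 1 lower call among 9 tested members, with a median log2 fold change of 0.16. That is 33.3% called, against 18.1% of all tested genes and 30.7% of those of at least 100 CPM. The list's median level was 428 CPM. HYDEF (Cre06.g296750), for a maturation factor of the hydrogenases, had 392 and 371 CPM in dnmt1 mt+ and 278 and 219 CPM in WT mt+ (0.62 ± 0.10, adjusted p = 0.000373), and it was higher in mt- too (0.71 ± 0.10), with a difference of -0.09 ± 0.14 that was not called. FDX5 (Cre17.g700950), for a ferredoxin raised without oxygen, had 127 and 122 CPM in dnmt1 mt+ and 96.9 and 57.7 CPM in WT mt+ (0.70 ± 0.16), with WT mt+ replicates that lay well apart. PAT2 (Cre09.g396650), for a phosphate acetyltransferase, had 375 and 377 CPM in dnmt1 mt+ and 533 and 429 CPM in WT mt+ (-0.35 ± 0.09). The hydrogenase genes HYDA1 (Cre03.g199800; 0.18 ± 0.08) and HYDA2 (Cre09.g396600; 0.10 ± 0.08) were not called. FDX5 was lost without dnmt1 mt+ replicate 1 and by DESeq2, PAT2 was lost without either dnmt1 mt+ library, and 6 members were higher without WT mt+ replicate 1.

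Of 9 tested genes of nitrogen assimilation, 2 rose and 1 fell. That is 33.3% called, against 18.1% of all tested genes and 30.7% of those of at least 100 CPM. The list's median level was 105 CPM. GSF1 (Cre12.g514050), for the ferredoxin-dependent glutamate synthase, had 90.6 and 84.7 CPM in dnmt1 mt+ and 60.2 and 50.3 CPM in WT mt+ (0.67 ± 0.10, adjusted p = 0.000188). The difference from mt- was called for it (0.58 ± 0.14). The glutamate dehydrogenase gene GDH2 (Cre05.g232150) rose by 0.23 ± 0.07 on the log2 scale and the glutamine synthetase gene GLN1 (Cre02.g113200) fell by 0.26 ± 0.08. GSN1 (Cre13.g592200), for the NADH-dependent glutamate synthase, was not called (-0.25 ± 0.11), but its effect differed from that in mt- (-0.61 ± 0.15). The calls of GDH2 and GLN1 were lost without either dnmt1 mt+ library, and on leaving out either library of dnmt1 mt-, that of GDH2 also without either WT mt- library. On the whole list 3 members fell without WT mt+ replicate 2, and GSF1 was the single call without either dnmt1 mt+ library or either dnmt1 mt- library.

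Genes of tubulin and of intraflagellar transport, the traffic that builds flagella, had 1 higher and 3 lower calls among 15 tested members, with a median log2 fold change of -0.22. That is 26.7% called, against 18.1% of all tested genes and 30.7% of those of at least 100 CPM. The list's median level was 303 CPM. TUB2 (Cre12.g549550), 1 of a pair of near-identical beta-tubulin genes whose reads may be split, had a log2 fold change of 0.31 ± 0.09. IFT74 (Cre01.g027950; -0.35 ± 0.09), IFT46 (Cre05.g241637; -0.28 ± 0.08) and IFT140 (Cre08.g362650; -0.26 ± 0.09), for transport particle subunits, fell. None of these 4 calls was kept without dnmt1 mt+ replicate 1, without replicate 2, or in the fit to the 2 groups alone, which each gave 0 calls on the list. Without WT mt+ replicate 2 there were 8 lower calls, and without WT mt+ replicate 1 there were 2 higher calls and a median of -0.07. Library size scaling gave 7 lower calls and DESeq2 5. IFT140 was lost without WT mt+ replicate 1 or any single mt- library as well, and TUB2 without dnmt1 mt- replicate 2.

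The chloroplast genome, whose DNA is the known target of DMT1 in gametes, was measured thinly, since its transcripts made up 0.0559% and 0.0436% of counts in dnmt1 mt+ and 0.0660% and 0.0407% in WT mt+. Calls were made for 3 higher and 4 lower genes out of 67 tested in this genome (10.4%), against 18.1% of all tested genes. The median level of these 67 genes was 5.10 CPM. Of all tested genes of 1 to 5 CPM 8.36% were called, and of those of 5 to 20 CPM 15.2%. The median log2 fold change of the chloroplast genes was 0.14. The median was 0.62 without WT mt+ replicate 1, with 21 higher and 4 lower, and -0.40 without WT mt+ replicate 2, with 4 higher and 16 lower. The direction thus rested on which WT mt+ library was used. Without dnmt1 mt+ replicate 1 the median was -0.08 (1 higher and 3 lower), and without replicate 2 it was 0.30 (3 higher and 1 lower). None of the 8 mitochondrion-encoded genes was called, where 18.1% of all tested genes and 8.36% of those of 1 to 5 CPM were. Their median level was 3.65 CPM, and their median log2 fold change was -0.01. It was 0.25 without WT mt+ replicate 1, and -0.37 with 1 lower call without WT mt+ replicate 2. In the mating-type region, taken as the 70 tested genes from Cre06.g250650 to Cre06.g255450, 5 were higher, 9 lower and 56 not called, a share of calls close to that of all tested genes. The lower calls there numbered 2 to 11 as 1 mt+ library was left out, and the higher calls 1 to 8.

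Some genes for which no symbol is at hand had large fitted folds; those named were first in each direction among called genes of this kind whose 4 mt+ libraries averaged 5 CPM or more and whose groups did not overlap. Cre05.g800547 had 17.2 and 17.4 CPM in dnmt1 mt+, from 288 and 259 counts, against 0 counts in both WT mt+ libraries. Cre06.g278278 had 276 and 239 counts in dnmt1 mt+ and 0 counts in both WT mt+ libraries. Against a floor of 3 counts in each WT mt+ library, these are at least 80.1-fold and at least 75.4-fold higher. In mt-, Cre05.g800547 had 558 and 545 counts in dnmt1 and 4 and 6 counts in WT. Cre06.g278278 had 352 and 272 counts in dnmt1 mt- and 0 counts in both WT mt- libraries. Both genes were called higher in mt- too. The difference between the contrasts was not called for either, which does not show that the effects were alike. For Cre06.g278278, with 0 reads in both WT groups, that difference had a standard error of 651, so the test could not call it. For Cre05.g800547 the fitted difference was 4.08 ± 1.46 (adjusted p = 0.0805), and it depends on the 0 reads in WT mt+. Over all tested genes, 8 had 0 reads in both dnmt1 mt+ libraries (4 of them called) and 21 had 0 reads in both WT mt+ libraries (17 called). The lower genes named by this ranking were Cre01.g009101 and Cre16.g686285. Both fell in mt- too (-1.65 ± 0.21 and -1.14 ± 0.24), with called differences between the contrasts of -1.62 ± 0.32 and -1.63 ± 0.37. Cre01.g009101 had 2.15 and 1.48 CPM in dnmt1 mt+ and 16.6 and 18.8 CPM in WT mt+ (-3.27 ± 0.24). Cre16.g686285 had 1.55 and 1.01 CPM in dnmt1 mt+ and 7.82 and 9.79 CPM in WT mt+ (-2.77 ± 0.28). All 4 calls held in each fit without 1 mt+ library.

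Some strong rises followed one another in the order in which the deposited counts list the genes of a chromosome. Neighbours here are tested genes next to each other in that order, with untested genes passed over. No map positions were used, so physical adjacency was not tested. Neighbours all called at 2-fold or more in 1 direction formed 2 runs of 4 genes and 2 of 3 genes, all higher in dnmt1 mt+. Beside them were 33 runs of 2 genes and 484 single genes. The longest were Cre06.g800681 to Cre06.g800688, with fitted log2 fold changes of 1.08 to 8.65, and Cre17.g802127 to Cre17.g802133, with 2.36 to 9.52. The others were Cre05.g237100 to Cre05.g237200, with 1.13 to 1.98, and Cre09.g801044 to Cre09.g801054, with 2.72 to 7.03. The upper ends belong to genes with very few or 0 reads in WT mt+, and depend on the prior count of the fit. Cre06.g800681 and Cre05.g237200 were lost without either dnmt1 mt+ library or without WT mt+ replicate 1, Cre05.g237200 also without either dnmt1 mt- library, and Cre05.g237100 without dnmt1 mt+ replicate 1, so the first run is then 3 genes and the third is broken. DESeq2 did not call Cre05.g237200 (adjusted p = 0.0916) and gave no adjusted p for Cre06.g800681, Cre17.g802130 and Cre09.g801050, 1 gene each of the other runs. Genes whose ID number begins with 8, which the v5.5 reference table does not hold, had calls for 14.3% of 1156 (108 higher and 57 lower), against 18.5% of 14032 other nuclear genes, and a median level of 3.66 CPM, against 14.6 CPM. At 2-fold or more they had 61 higher and 16 lower calls, and the others 347 and 134. The part of level in this was not tested. Without dnmt1 mt+ replicate 1 or 2 these IDs had 69 higher and 20 lower, or 70 and 25 calls, and without WT mt+ replicate 1 or 2 they had 133 and 98, or 177 and 82.

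The mt+ effect was then set beside the mt- effect over all genes. Of the 1415 genes higher in dnmt1 mt+, 395 (27.9%) were also higher in mt-, in the libraries labelled dnmt1, 270 (19.1%) were lower and 750 were not called there. The mt- contrast as a whole called 11.9% of genes higher and 11.6% lower. Those 395 are 21.7% of the 1820 genes higher in mt-. Of the 1348 genes lower in dnmt1 mt+, 447 (33.2%) were lower in mt- too, 25.2% of the 1774 lower there, and 119 (8.83%) were higher. The sign of the mt- effect was the same for 57.4% of the higher and 71.3% of the lower genes, where 50.7% of all tested genes had an mt- log2 fold change above 0. No library is shared between these contrasts. Among the 410 genes higher at 2-fold or more, 46.3% had the same sign in mt-, and 256 were called in the test of the difference. Among the 154 lower at 2-fold or more, 74.0% had the same sign in mt-, and 73 were called in that test. The test of the difference contains the mt+ effect, from the same libraries. Genes chosen by an mt+ call are therefore more likely to be called in it, and their counts are no separate support. That test called 2109 of all genes (13.8%), 1040 with a higher (6.81%) and 1069 with a lower effect in mt+ (7.0%). Among genes called in mt+, it called 649 of the 1415 higher and 451 of the 1348 lower genes. Without dnmt1 mt+ replicate 1 it called 662 and 476, without replicate 2 673 and 458, and without WT mt+ replicate 1 or 2 it called 1677 and 1481, or 1993 and 2348. Without dnmt1 mt- replicate 1 or 2 it called 706 and 457, or 665 and 531, and without WT mt- replicate 1 or 2 it called 635 and 453, or 624 and 493.

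**Figure D4:**
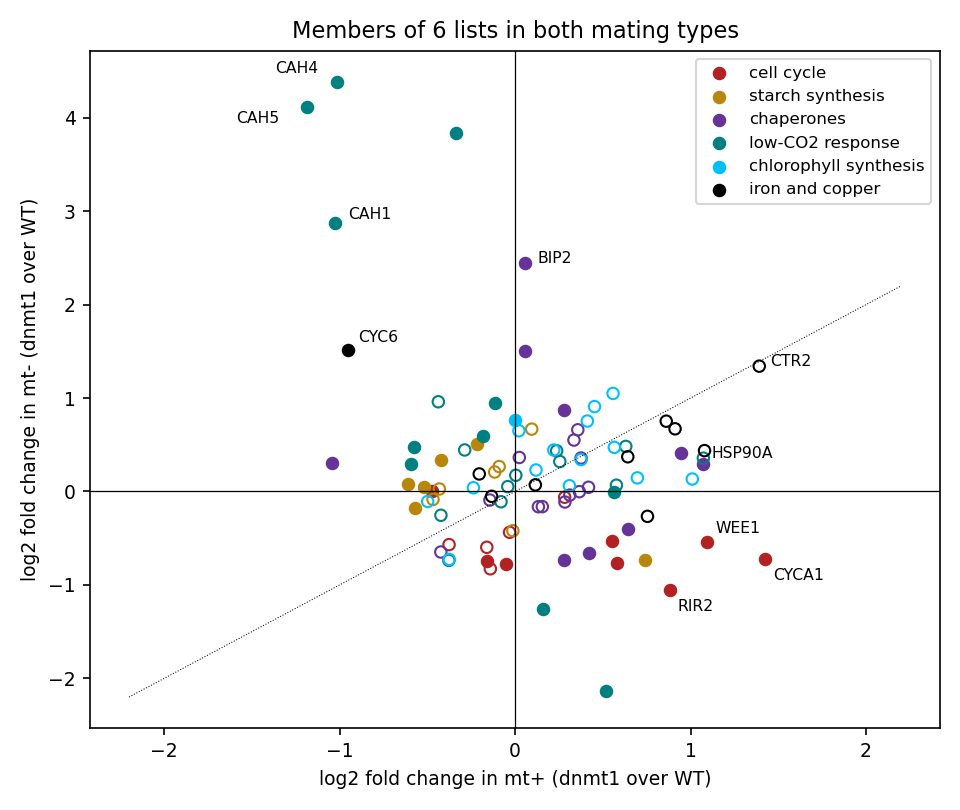
Log2 fold change of dnmt1 over WT in mt+ (horizontal axis) against that in mt- (vertical axis) for tested members of 6 gene lists, coloured by list; filled points were called in the test of the difference between the contrasts, open points were not, and the dotted line marks equal effects. CAH4, CAH5 and CAH1 lie at the upper left, CYCA1, WEE1 and RIR2 at the lower right, and CTR2 on the line of equal effects.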

How the data were processed

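RNA-seq of 8 libraries in 4 groups of 2 was used. The authors deposited raw counts per gene. Per the labels' protocols the libraries were made with a NEBNext kit, and the submitters' processing notes list STAR 2.7.6, Trim Galore 2.6, featureCounts, Picard and DESeq2 without giving their roles. The strand setting of the counting is not given in the sources used here. The normalized signal that the authors also deposited equals those counts over a single factor for each library (0.749 to 1.42), and served as a check only. Of 17693 IDs, 15386 matched the v5.5 reference table, which holds no symbols; symbols were paired with loci by hand from standard nomenclature.

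Low genes were removed with filterByExpr on the 4 groups. Counts, normalized by TMM, went into edgeR 4.0.16 (R 4.3.3; glmQLFit with a mean for each group, leaving 4 residual degrees of freedom). Contrasts were tested with glmQLFTest, 2-sided, adjusted by Benjamini-Hochberg over 15263 genes at a threshold of 0.05; the procedure was tested on simulated data. The members and lists were chosen with earlier results of these data known, and lists are described by counts and medians with no set test. Named genes were DMT1 and FUS1, the 4 members of each list with the smallest p and each called member of a direction with 5 or fewer, the called genes of largest fold (mean level over the 4 mt+ libraries no less than 5 CPM, groups not overlapping), genes with 0 reads in 1 group, and the longest runs of neighbours. Other members were named after their values were seen. A fold against 0 reads used a floor of 3 counts per library, which covers counting error only. Odd numbers made up 25.5% to 30.8% of the counts from 2 to 19 in a library, so low counts may stand for fewer fragments, and halved counts were an alternative. The others were RLE size factors, library size scaling, no low-count filter, a minimum mean of 10 CPM, a minimum fold of 2, the mt+ groups fitted alone, the replicate number as a block, DESeq2 1.42.0, and leaving out each library, which gives a group's remaining library the spread of the other groups. Figures were drawn with matplotlib 3.10.9.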

Additional observations from a re-analysis of the deposited data

Results flagged for a closer look

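The results given here are those of the genes named above by symbol whose dnmt1 effect differed between the mating types. The test was that of the difference itself (the mt+ effect minus the mt- effect, edgeR, adjusted over all tested genes), and values are on the log2 scale. Of all tested genes, 2109 passed it. Of the genes without a symbol, Cre01.g009101 had -1.62 and Cre16.g686285 -1.63, both called, and others are not given here. Groups of 2 libraries were not tested for outlying libraries. A negative value means that the effect was lower in mt+.

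Among the genes named for the low-CO2 response, the values were -3.90 for CAH1, -5.40 for CAH4, -5.31 for CAH5, -4.17 for LCIA, -1.05 for CAH8, -0.89 for EPYC1 and 0.57 for CAH3. CAH1, CAH4 and CAH5 had their lowest level of the 4 groups in WT mt-. The value of LCIA has a standard error of 1.00. It rests on 2 and 2 counts in WT mt- and on 5 to 20 counts in the mt+ libraries. CYC6 had -2.46 and the antenna gene LHCBM9 1.93. The locus listed for DNMT1, DMT1, had -2.66, where the library labels give the same genotype in both mating types.

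Cell cycle genes had values of 2.14 for CYCA1, 1.93 for RIR2, 1.63 for WEE1, 1.35 for CDKB1, 1.08 for PCNA1, 0.72 for RNR1, 0.59 for MCM2 and -0.48 for MAT3. Chaperone genes had 0.78 for HSP90A, 0.54 for HSP70B, 1.05 for HSP22E, 1.08 for HSP22F, -1.35 for HSP22A, -1.45 for BIP1 and -2.39 for BIP2.

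In starch synthesis the values were -0.69 for STA1, -0.40 for STA6, -0.57 for STA3, -0.76 for SBE3, -0.72 for STA11 and 1.47 for STA7. In carbon and nitrogen metabolism they were -0.44 for CIS1, -0.75 for PAT2, 0.99 for FDX5, -0.51 for GLN1, -0.61 for GSN1 (Cre13.g592200, a glutamate synthase gene that was not called in mt+), 0.58 for GSF1 and -0.64 for HYDA2, which was not called in mt+ either. No cause of these differences was tested.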

How the results depend on the processing

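The genes higher and lower in dnmt1 mt+ numbered 1415 and 1348, 814 and 705 in the mt+ groups fitted alone and 410 and 154 with a minimum fold of 2. Leaving out 1 library in turn gave 771 to 2018 higher and 529 to 2195 lower genes, and 624 to 1993 and 453 to 2348 for the difference between the mating types. The other alternatives kept both counts within 1.5 times, except that library size scaling gave 1250 higher and 690 lower genes for the difference (64.4% higher, against 49.3%). With the replicate number as a block, the counts were 1526 and 1499, and 1159 and 1200 for the difference. No label ties the numbers across groups, and the deviations of same-numbered libraries correlated by 0.117 between dnmt1 mt+ and WT mt+ and by -0.0482 to 0.149 between the other pairs of groups, so the number is not taken as a pairing. Over the named genes and all alternatives, 1489 values stayed on their side of the threshold in the same direction, 120 lost a call, 19 gained one and 9 changed sign, none of them a call in the values as reported. Of genes not called, some changed sign as 1 library was left out, over ranges of -0.36 to 0.32 for RNR1 (called at both ends), -0.26 to 0.11 for LCIB, -1.52 to 0.28 for LCIA, -0.089 to 0.032 for ICL1, -0.13 to 0.27 for BIP1 and -0.12 to 0.24 for BIP2, and ICL1 had 0.0075 with a minimum mean of 10 CPM.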
